A study of Mus musculus with 6 samples.

Results

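The genes described here encode nonmuscle myosin II and the enzymes that switch it on and off. They are 10 genes, chosen by function and found by symbol among the 46603 gene identifiers of each library: the heavy chains Myh9, Myh10 and Myh14, the essential light chain Myl6, the regulatory light chains Myl12a and Myl12b, the light chain kinase Mylk, the RhoA-dependent kinases Rock1 and Rock2, and the myosin phosphatase targeting subunit Ppp1r12a. RNA sequencing was done on mouse embryonic fibroblasts (MEFs), connective tissue cells grown from embryos, that lack beta-actin (KO) or are wild-type (WT), with 3 libraries per genotype. The labels give BALB/c as the strain and embryos of 10.5 days as the source for both genotypes. All libraries, WT included, came from cells kept for 6 days in adipocyte differentiation medium, which held insulin, dexamethasone, the phosphodiesterase inhibitor IBMX and ascorbic acid, so no uninduced cells can be compared. The labels name 1 source of KO and WT cells and do not say whether the libraries came from separate cultures, and the p-values therefore measure only the spread between these libraries, which may be technical.

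Nonmuscle myosin II is a hexamer of a pair of heavy chains, a pair of essential light chains and a pair of regulatory light chains, and it pulls on actin filaments to build stress fibres, stiffen the cell cortex and close the cleavage furrow. Phosphorylation of the regulatory light chain on a neighbouring threonine and serine lets the molecule unfold into filaments and raises its ATPase activity. The calcium and calmodulin dependent kinase encoded by Mylk and the RhoA-activated kinases ROCK1 and ROCK2 place that phosphate, a phosphatase built on the subunit encoded by Ppp1r12a removes it, and ROCK also inhibits that phosphatase. In fibroblasts, high actomyosin tension and active RhoA and ROCK are known to hold back adipocyte differentiation.

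The target site of these kinases is shown first because it also shows how alike the regulatory light chain genes are. The stretch of 60 coding bases around it was read from the GENCODE M21 transcripts of GRCm38, and the capitals mark the threonine and serine codons.
Myl12a: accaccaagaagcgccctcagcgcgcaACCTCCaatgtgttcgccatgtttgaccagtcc
Myl12b: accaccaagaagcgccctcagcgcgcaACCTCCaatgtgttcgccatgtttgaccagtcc
Myl9: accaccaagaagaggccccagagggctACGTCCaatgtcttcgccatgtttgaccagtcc
Myl12a and Myl12b had 0 differences over these 60 bases, and Myl9, the regulatory light chain of smooth muscle, differed from each at 8. Over 519 aligned coding bases Myl12a and Myl12b were 96.5% identical, against 85.5% for Myl12a and Myl9 and 86.3% for Myl12b and Myl9. Reads from such stretches cannot be assigned to a single gene. Of all 50-base windows of the representative transcript, 25.4% in Myl12a and 9.69% in Myl12b also occurred in a transcript of another counted gene, falling to 2.68% and 1.03% for 100-base windows. The read length and the treatment of reads that map to several places were not given in the sources used here, so the values of Myl12a and Myl12b are less certain than those of genes with no such windows. Myl9, Myh14, Mylk, Rock1, Rock2 and Ppp1r12a had 0 shared 50-base windows, Myh9 had 1.12% and Myh10 0.947%. Myl6 had 46.5%, shared with the processed pseudogenes Gm5526, Gm10080 and Gm8894, which held 51, 26 and 3 counts over the 6 libraries against 35764 in WT and 114572 in KO for Myl6.

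The promoter windows of Myl12a and Myl12b are shown because the genes are tandem neighbours on the minus strand of chromosome 17, 2765 bases apart, and changed in opposite directions. The window of Myl6 is shown because it holds the only match to the CArG box among the windows searched for these genes. The CArG box is the sequence bound by the serum response factor SRF. The search took 10 windows for 9 of the 10 genes from the RefSeq promoter table of GRCm38.p6, and Rock1 was not searched. Each window ran from 250 bases before to 50 bases after a start site. Capitals mark the CArG box and the motif GGGCGG, searched on both strands.
Myl12a, chr17:71002484-71002783, strand -: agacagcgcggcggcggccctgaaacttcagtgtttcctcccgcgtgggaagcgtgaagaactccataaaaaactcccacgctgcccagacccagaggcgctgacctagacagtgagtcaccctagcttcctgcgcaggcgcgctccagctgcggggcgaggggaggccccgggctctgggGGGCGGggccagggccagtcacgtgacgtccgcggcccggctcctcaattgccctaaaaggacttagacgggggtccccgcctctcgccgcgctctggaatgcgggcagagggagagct
Myl12b, chr17:70990467-70990766, strand -: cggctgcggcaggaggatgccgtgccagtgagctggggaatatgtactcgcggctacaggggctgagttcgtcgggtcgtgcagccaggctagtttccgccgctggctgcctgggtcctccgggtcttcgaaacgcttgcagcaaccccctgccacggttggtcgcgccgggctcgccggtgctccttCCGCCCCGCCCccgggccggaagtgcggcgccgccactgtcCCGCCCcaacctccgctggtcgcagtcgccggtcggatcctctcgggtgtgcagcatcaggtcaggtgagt
Myl6, chr10:128492960-128493259, strand -: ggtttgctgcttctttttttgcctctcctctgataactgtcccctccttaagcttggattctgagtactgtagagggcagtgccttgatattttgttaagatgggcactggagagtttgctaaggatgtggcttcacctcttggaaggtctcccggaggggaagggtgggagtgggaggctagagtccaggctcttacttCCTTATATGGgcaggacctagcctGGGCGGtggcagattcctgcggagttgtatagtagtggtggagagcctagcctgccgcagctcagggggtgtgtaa
A CArG box was found in 1 of the 10 windows, starting at position -50 of the more downstream of the Myl6 start sites, and in 1.63% of all 32851 promoter windows in the table. The match overlapped no GGGCGG. The window of Myl9, not among the 10, also held a CArG box, starting at position -161. GGGCGG occurred in 7 of the 10 windows and in 35.7% of all windows, and CCAAT, also searched on both strands, in 5 of the 10 and in 37.4% of all. The matches are letters in a window and say nothing of binding.

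Library totals ran from 26955708 to 38619711 counts. Actb, the deleted gene, was at 1902, 1904 and 1819.8 CPM (counts per 1000000 counts in TMM-scaled libraries) in WT and at 10.4, 58.9 and 50.3 CPM in KO replicates 1, 2 and 3, in the direction of the labels. KO replicate 1 stood somewhat apart, with a mean correlation of log2 CPM with its own group of 0.969, against 0.980 and 0.981 for the other KO libraries and 0.990 to 0.991 for WT. The mitochondrial share of counts was 3.57% to 3.63% in WT, below that of every KO library (3.76%, 5.41% and 4.43%), and the part of this in the results was not tested. KO replicate 1 was the highest KO library for 8 of the 10 genes, and KO replicate 3 was the lowest for 8. WT replicate 1 was the lowest WT library for 7 of the 10. In that library the median deviation from the WT mean was -0.10 log2 for genes with a transcript of at least 6000 bases and 0.08 for those of at most 2000 bases. Values without each library are given beside the results that rest on it. In such bulk libraries, fewer cells of a type and less RNA per cell cannot be told apart.

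After 6 days in the differentiation medium, transcripts of the contractile motor were higher in KO than in WT cells, with 1 exception among the light chains. All 10 genes had counts enough to be tested. By the edgeR quasi-likelihood test over all 15009 tested genes, 7 rose in KO (Myh9, Myh10, Myh14, Myl6, Myl12a, Mylk and Rock2), 1 fell (Myl12b) and 2 were not called (Rock1 and Ppp1r12a). Of all tested genes 28.3% were called, 13.8% higher and 14.5% lower in KO. The median log2 fold change was 0.94 over the 10 genes and 0.01 over all tested genes. WT and KO values did not overlap for 9 of the 10 genes, a pattern that 49.6% of all tested genes showed. The calls of Myl6, Myl12a and Mylk held in all 16 alternatives, while those of Myh9, Myh10, Myh14 and Rock2 were lost without any 1 WT library, which left only those 3 genes higher. Without KO replicate 1 the counts were again 7 higher and 1 lower. Scaling by library totals alone moved the median of all tested genes to -0.19 log2 and the split of calls from 2074 higher and 2181 lower to 1351 and 3347. The fold changes of the 10 genes moved down with it, and 6 of them remained called higher and 1 lower.

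**Figure D1:**
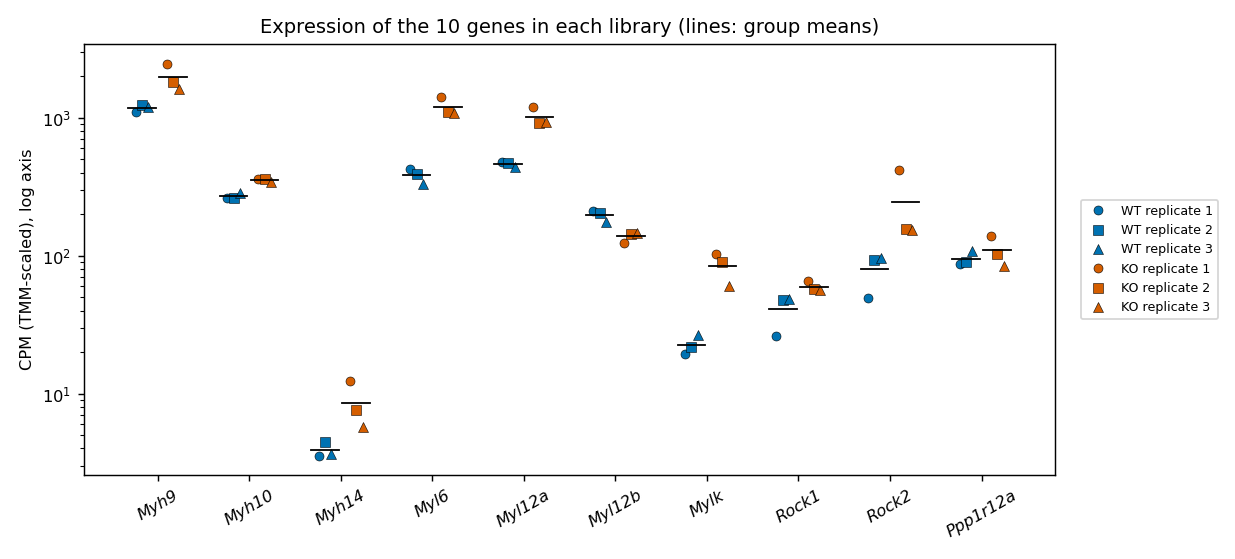
CPM of the 10 genes in each library on a log axis, with WT in blue, KO in orange, a marker shape per replicate number and a line at each group mean. The WT and KO points are separate for every gene except Ppp1r12a, KO replicate 1 lies far above the other KO libraries for Rock2, and Myl12b is the only gene with all KO points below the WT points.

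**Figure D2:**
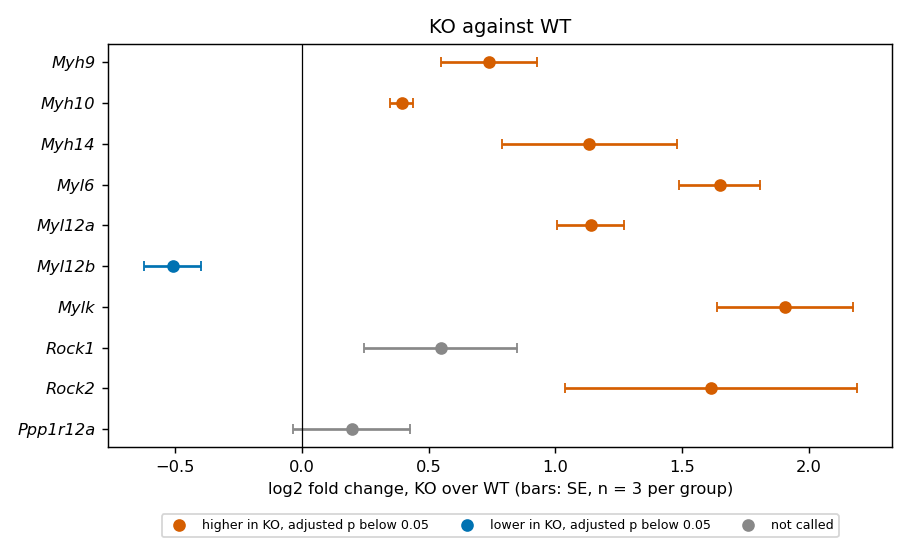
Log2 fold change of KO over WT for the 10 genes from the edgeR fit, with bars for the standard error of the difference in mean log2 CPM (3 libraries per group). Mylk, Myl6 and Rock2 have values above 1.5, Rock2 with the widest bar, and only Myl12b lies below 0.

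The heavy chains carry the motor domain and the tail that assembles into filaments, and each defines an isoform: Myh9 gives IIA, which drives fast contraction and protrusion, Myh10 gives IIB, which holds tension for longer, and Myh14 gives IIC, which is scarce in most fibroblasts. Their encoded proteins were 77.5% identical between Myh9 and Myh10, 64.1% between Myh9 and Myh14 and 65.2% between Myh10 and Myh14. Myh9 (ENSMUSG00000022443, chromosome 15, 77760587 to 77842175, GRCm38) was the most abundant of them, at 1108, 1239 and 1191 CPM in WT replicates 1, 2 and 3 and at 2469.8, 1817 and 1612 CPM in KO replicates 1, 2 and 3. Every KO library was above every WT library, and KO replicate 1 was highest. Myh9 rose by 0.74 log2 (SE 0.19, adjusted p = 0.0226, edgeR), 1.67-fold, from 1179 ± 66.5 to 1967 ± 448 CPM (SD, n = 3). Without WT replicate 1, 2 or 3 its adjusted p was 0.0929, 0.0792 and 0.0751 at 0.69, 0.77 and 0.74 log2, and over all alternatives it ran from 0.0017 to 0.0929.

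Myh10 (ENSMUSG00000020900, chromosome 11, 68691559 to 68816632) was at 262, 263 and 284 CPM in WT and at 360.3, 361 and 341 CPM in KO. Its libraries were the closest to each other within a genotype among the heavy chains, and the groups were separate. The rise of 0.39 log2 (SE 0.05, adjusted p = 0.0287) was the smallest of the called rises among the 10 genes. It was not called without WT replicate 1, 2 or 3 (adjusted p = 0.104, 0.141 and 0.0569), without KO replicate 2 or 3 (0.0774 and 0.0712), with no filter on low counts (0.0696), with upper-quartile scaling (0.0509) or with library totals (0.19 log2, 0.225). Across its alternatives the adjusted p ran from 0.0024 to 0.225.

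Myh14 (ENSMUSG00000030739, chromosome 7, 44605803 to 44670843) was scarce, with 363 counts over the WT libraries and 795 over the KO libraries. It was at 3.55, 4.46 and 3.65 CPM in WT and at 12.4, 7.59 and 5.68 CPM in KO, with no overlap and with KO replicate 1 highest. Myh14 rose by 1.13 log2 (SE 0.34, adjusted p = 0.0312), or by 0.77 log2 without KO replicate 1 (adjusted p = 0.017). Without WT replicate 1, 2 or 3 the adjusted p was 0.112, 0.0778 and 0.107, in a range of 0.0032 to 0.112 over all alternatives. Counts per kb of exon, which allow levels of different genes to be compared, put Myh9 at 77.6% ± 1.09 of the heavy chain total in WT, Myh10 at 22.0% ± 1.13 and Myh14 at 0.454% ± 0.0451 (SD, n = 3). In KO these shares were 80.9% ± 2.78, 18.5% ± 2.91 and 0.612% ± 0.129.

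The share of Myh10 was 22.5%, 20.7% and 22.7% in WT and 15.2%, 19.6% and 20.6% in KO. All KO shares were below all WT shares, with WT replicate 2 and KO replicate 3 close to each other. The difference was -3.49 percentage points (SE 1.80, exact permutation p = 0.1, two-sided, adjusted over 7 quantities 0.117), and -1.84 without KO replicate 1. With 3 libraries against 3 the smallest p this permutation test can give is 0.1, so the test cannot pass 0.05 for any of the 7 quantities.

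The light chains sit on the neck of the heavy chain, where the essential chain stiffens the lever arm and the regulatory chain takes the activating phosphate. Myl6 (ENSMUSG00000090841, chromosome 10, 128490860 to 128494145), the essential light chain of nonmuscle and smooth muscle cells, was at 423, 392 and 332 CPM in WT and at 1406, 1102 and 1087 CPM in KO. The lowest KO library was above the highest WT library by more than the whole WT range. It rose by 1.65 log2 (SE 0.16, adjusted p = 0.000528), 3.13-fold, the smallest adjusted p of the 10 genes, and by 1.52 log2 without KO replicate 1. Myl6b, another essential light chain gene, was low in both genotypes at 8.75 and 9.29 CPM (log2 fold change 0.09, adjusted p = 0.714).

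Myl12a (ENSMUSG00000024048, chromosome 17, 70993656 to 71002878) was at 481, 468 and 436 CPM in WT and at 1202, 922 and 926 CPM in KO. KO replicate 1 was again the highest, and the groups were far apart. Myl12a rose by 1.14 log2 (SE 0.13, adjusted p = 0.0016), 2.20-fold. Its exons share 207 bases with Myom1 on the opposite strand, which held 529 counts in all. GENCODE M21 also holds a further gene entry named Myl12b on the same strand, which is not among the counted identifiers. That entry shares 462 exon bases with Myl12a and 739 with the counted Myl12b, and its part in their values was not tested. Myl12b (ENSMUSG00000034868, chromosome 17, 70973133 to 70990890) went the other way, at 212, 205 and 174 CPM in WT and at 125, 144 and 146 CPM in KO. Here KO replicate 1 was the lowest library, and the groups did not overlap. The group means were 197 ± 19.9 and 138 ± 11.9 CPM (SD, n = 3), and Myl12b fell by 0.51 log2 (SE 0.11, adjusted p = 0.0204). The fall was -0.46 and -0.49 log2 without WT replicate 1 or 2, where it was not called (adjusted p = 0.0788 and 0.0911, in a range of 0.0051 to 0.0911 over all alternatives).

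The split within this pair was seen in each library. Per kb of exon, Myl12b made up 34.8%, 34.7% and 32.6% of the Myl12a and Myl12b total in WT and 11.2%, 15.9% and 16.1% in KO. Each KO share was below the lowest WT share by far more than the range within either genotype. The difference was -19.7 percentage points (SE 1.75, exact permutation p = 0.1, adjusted 0.117), or -16.6 when the longest transcript was taken as the length in place of all exons. Of the reads of the pair, those from identical stretches cannot be told apart, and their part in the split was not tested. Myl9 is counted separately from the pair with 0 shared windows. It was at 42.5, 23.8 and 41.0 CPM in WT and at 1066, 985 and 702 CPM in KO, a rise of 4.68 log2 (SE 0.33, adjusted p = 9.1e-05). It made up 12.8% ± 3.58 of the Myl9, Myl12a and Myl12b total per kb in WT and 68.8% ± 3.75 in KO (SD, n = 3). This was a difference of 56.0 percentage points (SE 3.00, exact permutation p = 0.1, adjusted 0.117), or 49.0 with the longest transcript as the length. The shares of Myl12b and Myl9 depend on the lengths taken. Myl12a has 3360 bases of exon but 883 in its representative transcript, Myl12b 2770 and 2143, and Myl9 1162 and 1128. The shares were not computed with the representative transcripts. Without a length, mean Myl9 in KO (918 CPM) was below mean Myl12a (1017 CPM), though above it in KO replicate 2 (985 against 922).

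**Figure D3:**
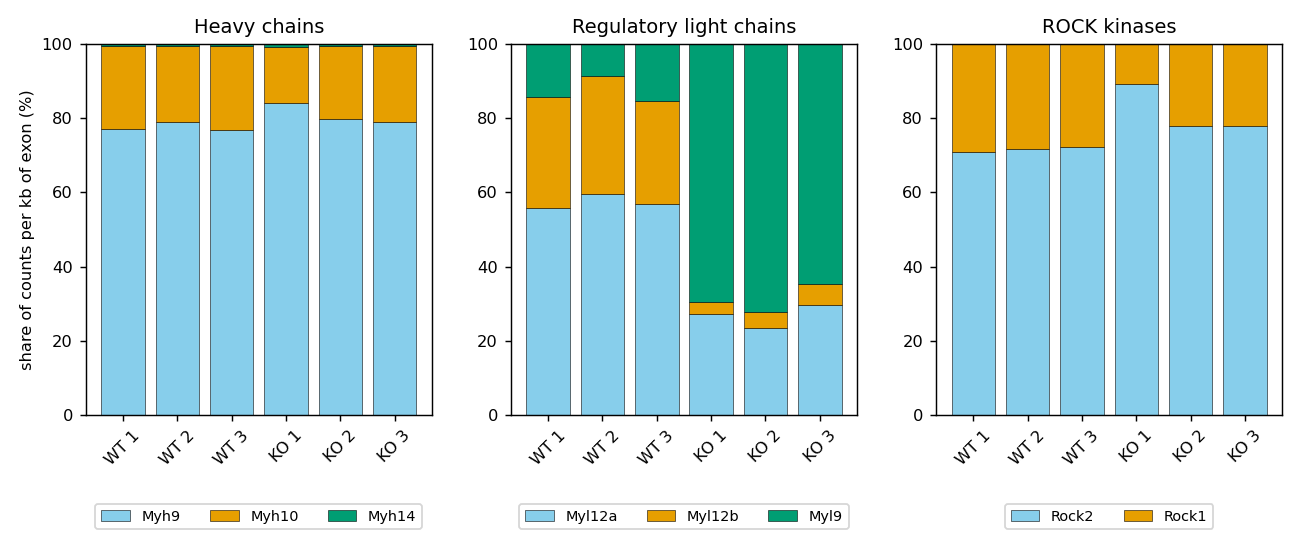
Share of each gene in its family in each library, from counts per kb of exon, for the heavy chains, the regulatory light chains and the ROCK kinases. By this length, Myl9 takes 8.75% to 15.5% of the regulatory light chains in WT and 64.8% to 72.2% in KO, while Myh9 and Myh10 keep their order in every library. The shares depend on the length taken for each gene.

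Summed per kb of exon, a description made after the values were seen, the heavy chains reached 118 ± 5.52 CPM per kb in WT and 187 ± 35.8 CPM per kb in KO cells, 1.59 times as much. The Myl12a and Myl12b total went from 208 ± 14.1 to 352 ± 43.5 CPM per kb, a ratio of 1.69. With Myl9 added, the regulatory light chains went from 239 ± 15.0 to 1142 ± 196 CPM per kb, a ratio of 4.78. The essential light chains Myl6 and Myl6b went from 125 ± 14.7 to 381 ± 56.4 CPM per kb, a ratio of 3.06 (all SD, n = 3). These ratios rest on the length of all exons and were not computed with the longest transcript as the length. They were not tested against each other.

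Among the enzymes, Mylk encodes the light chain kinase activated by calcium and calmodulin. A gene-level count pools its long, smooth muscle and kinase-free products, which cannot be separated here. Mylk (ENSMUSG00000022836, chromosome 16, 34745210 to 35002420) was at 19.4, 21.7 and 26.7 CPM in WT and at 103, 90.1 and 60.5 CPM in KO. Every KO value was over 2 times the highest WT value. It rose by 1.91 log2 (SE 0.27, adjusted p = 0.000998), 3.75-fold, the largest change of the 10 genes, and by 1.74 log2 without KO replicate 1.

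Rock2 and Rock1 encode the RhoA-activated kinases, which were 65.3% identical in encoded residues. Rock2 (ENSMUSG00000020580, chromosome 12, 16894895 to 16987823) was at 49.2, 93.2 and 95.9 CPM in WT and at 420.4, 157 and 152 CPM in KO. WT replicate 1 was low and KO replicate 1 far above the rest, with no overlap between the groups. Rock2 rose by 1.61 log2 (SE 0.58, adjusted p = 0.0313), with the largest standard error of the 10 genes. Without KO replicate 1 the rise was 0.96 log2 (adjusted p = 0.0163). Without WT replicate 1, 2 or 3 it was 1.35, 1.74 and 1.77 log2 and not called (adjusted p = 0.108, 0.0802 and 0.0804, in a range of 0.001 to 0.108 over all alternatives).

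Rock1 (ENSMUSG00000024290, chromosome 18, 10064401 to 10182045) was at 26.2, 48.1 and 48.3 CPM in WT and at 65.6, 57.5 and 56.0 CPM in KO. WT replicate 1 was low, as for Rock2, and the groups did not overlap. The log2 fold change was 0.55 (SE 0.30) and was not called (adjusted p = 0.119, and 0.0517 to 0.307 over the alternatives). The interval of the difference from limma-voom, at 95% and not adjusted for the number of genes, was 0.05 to 1.14 log2, so a rise of up to 1.14 log2 lies within it. Without WT replicate 1 the value was 0.30 log2. With a per-library correction for transcript length, added after the low values of WT replicate 1 were seen, Rock1 was at 0.65 log2 (adjusted p = 0.0517) and Rock2 at 1.70 (0.0213).

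Rock2 made up 70.9%, 71.6% and 72.1% of the Rock1 and Rock2 total per kb of exon in WT and 89.3%, 78.0% and 78.0% in KO. Though the Rock1 and Rock2 levels in WT replicate 1 were well below those in the other WT libraries, its share was close to theirs. The share differed by 10.2 percentage points (SE 3.78, exact permutation p = 0.1, adjusted 0.117), and by 6.44 without KO replicate 1. Its level depends on the length, since Rock1 has 18094 bases of exon and Rock2 13897, but longest transcripts of 6440 and 7644. With the longest transcript, mean Rock2 and Rock1 were at 10.4 and 6.34 CPM per kb in WT and at 31.8 and 9.27 in KO.

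Ppp1r12a (ENSMUSG00000019907, chromosome 10, 108162193 to 108284475), the subunit that brings the phosphatase to myosin, was at 86.7, 90.4 and 109 CPM in WT and at 139, 103 and 84.6 CPM in KO. KO values lay on both sides of the WT values, and this was the only one of the 10 genes with overlap. The difference was 0.20 log2 and not called (SE 0.23, adjusted p = 0.481, limma-voom interval -0.28 to 0.62). The value was -0.02 without KO replicate 1 and with library totals. The log2 ratio of Mylk to Ppp1r12a per kb of exon was -2.65, -2.55 and -2.51 in WT and -0.92, -0.69 and -0.97 in KO. This ratio differed by 1.71 log2 (SE 0.10, exact permutation p = 0.1, adjusted 0.117), and KO replicate 1 lay between the other KO libraries.

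**Figure D4:**
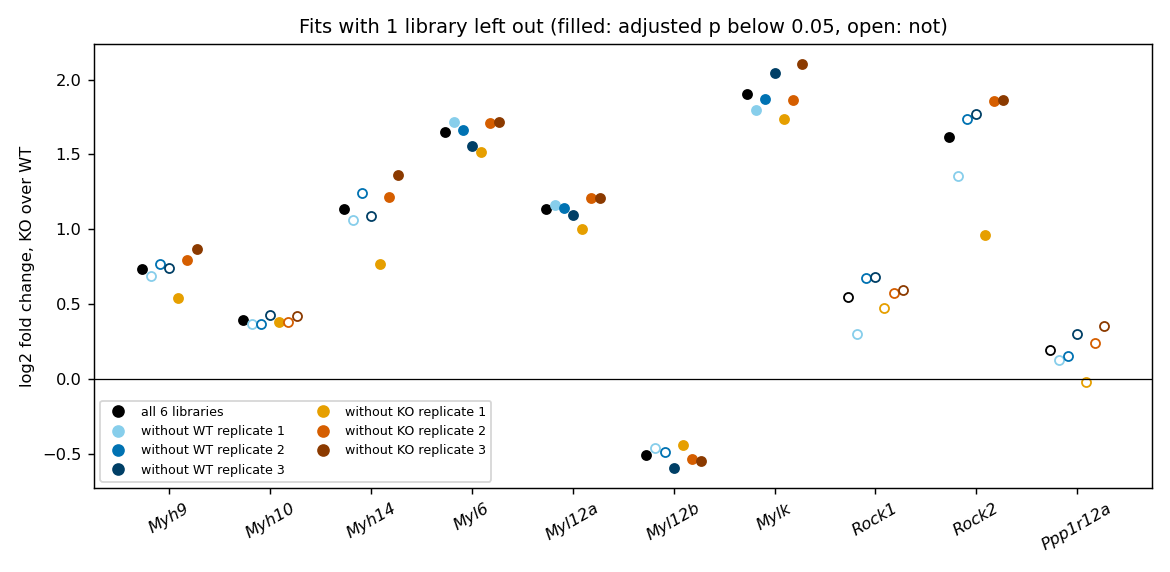
Log2 fold change of KO over WT for the 10 genes with all 6 libraries and with each library left out, filled where the edgeR adjusted p is below 0.05. Myl6, Myl12a and Mylk are filled in every fit, Rock1 and Ppp1r12a in none, and the value of Rock2 runs from 0.96 without KO replicate 1 to 1.87 without KO replicate 3.

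Ordered by CPM per kb of exon in WT, Myl12a came first at 137 ± 6.92, followed by Myl6 (120.0 ± 14.5), Myh9 (91.2 ± 5.14), Myl12b (71.1 ± 7.18), Myh10 (25.8 ± 1.20), Ppp1r12a (11.9 ± 1.47), Rock2 (5.71 ± 1.89), Rock1 (2.26 ± 0.701), Mylk (2.01 ± 0.335) and Myh14 (0.534 ± 0.0689; all SD, n = 3). Among neighbours in that order, the ranges of Myl12a and Myl6 and of Rock1 and Mylk overlapped. In KO the order began with Myl6 (376 ± 56.5), Myl12a (303 ± 47.7) and Myh9 (152 ± 34.6), then Myl12b (49.9 ± 4.28), Myh10 (33.9 ± 1.07), Rock2 (17.5 ± 11.0), Ppp1r12a (13.6 ± 3.48), Mylk (7.52 ± 1.95), Rock1 (3.30 ± 0.286) and Myh14 (1.18 ± 0.475). There the ranges of Myl6 and Myl12a and of Rock2 and Ppp1r12a overlapped. The order depends on the length used. With the longest transcript in place of all exons, a choice made after the values were seen, Myh9 (159 CPM per kb) came before Myl6 (126) in WT, and Myl12a (525) before Myl6 (394) in KO, while the other genes kept their places. The neighbours with overlapping ranges were then Rock2 and Rock1 in WT, and Myh10 and Rock2, Rock2 and Ppp1r12a, and Mylk and Rock1 in KO. The genes for filament subunits thus stood above those for the regulatory enzymes in both genotypes, except Myh14.

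The other genes of the pathway were read from 9 lists with 121 genes, of which 100 could be tested. Of these 23 rose, 15 fell and 62 were not called, with a median log2 fold change of 0.16. The called share, 38 of 100, stands beside 28.3% of all tested genes. Without KO replicate 1 the counts were 33 higher and 22 lower, and without WT replicate 2 they were 16 and 9. With library totals the medians of 5 of the 9 lists changed sign. The plot by list shows that called genes of both directions occur in 6 of the 9 lists.

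**Figure D5:**
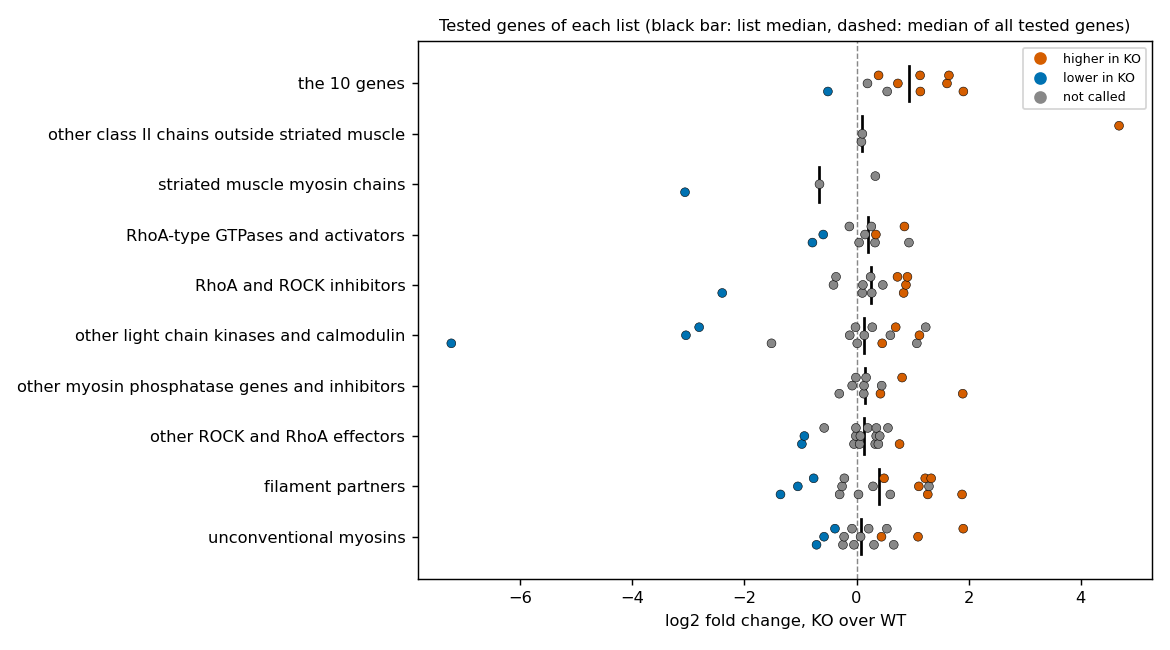
Log2 fold change of KO over WT for each tested gene of the 10 genes described here and of the 9 pathway lists, coloured by call, with a black bar at each list's median and a dashed line at the median of all tested genes. The median of the 10 genes (0.94) lies to the right of all list medians, and single genes such as Myl9 and Dapk1 lie far outside the range of the rest.

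Upstream, RhoA is the GTPase that switches ROCK on, exchange factors load it with GTP, and GAPs (GTPase-activating proteins) turn it off. In the list of these GTPases and their activators 2 of 10 rose, 2 fell and 6 were not called. Rhoa was at 203, 206 and 202 CPM in WT and at 248, 238 and 248 CPM in KO, separate but 0.26 log2 apart (SE 0.02, adjusted p = 0.082). It was called with DESeq2 (adjusted p = 0.0422), with the length correction (0.026) and without KO replicate 1 (0.0352), in a range of 0.026 to 0.665 over the alternatives. Ect2, the exchange factor of the cleavage furrow, rose by 0.85 log2, and Rhoc by 0.35 (adjusted p = 0.0473). The exchange factors Arhgef2, which is released from microtubules, and Arhgef1, which couples G protein receptors to RhoA, fell by 0.79 log2 (adjusted p = 0.00211) and 0.59 log2 (0.0109). Rhoc was not called in 9 of 16 alternatives. These included leaving out WT replicate 1, 2 or 3 (adjusted p = 0.0931, 0.167 and 0.140) or KO replicate 2 or 3 (0.103 and 0.149). They also included library totals (0.15 log2, 0.354). Arhgef1 was not called without WT replicate 2 (0.0634). The counts were 1 higher and 2 lower without WT replicate 1 or 3, 1 and 1 without WT replicate 2, and 5 and 2 without KO replicate 1.

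Among 12 inhibitors of RhoA and ROCK 4 rose, 1 fell and 7 were not called. The GAPs Arhgap29 and Dlc1 rose by 0.88 log2 (from 81.3 ± 6.66 to 149.8 ± 30.2 CPM) and 0.84 log2 (from 72.9 ± 8.74 to 130.5 ± 26.5 CPM). Rnd2, an atypical small GTPase, rose by 0.73, though 226 of its exon bases overlap Vat1 on the opposite strand. Stard8, a GAP related to Dlc1, fell by 2.40 log2 (adjusted p = 0.00533), from 5.88 ± 1.39 to 1.13 ± 0.627 CPM (SD, n = 3). Rnd3, which binds and inhibits ROCK1, was at 136 and 146 CPM (log2 fold change 0.10, adjusted p = 0.67). Without KO replicate 1 the counts were 4 higher and 3 lower.

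Of 15 tested light chain kinases and calmodulin genes beside Mylk 3 rose, 3 fell and 9 were not called. Calm2, which encodes calmodulin, went from 452 ± 49.6 to 983 ± 64.0 CPM, a rise of 1.12 log2 (SE 0.10, adjusted p = 0.00112). Calm3 (0.28 log2, adjusted p = 0.109) was not called. Pak1 rose by 0.70 log2. Cdc42bpg, a kinase of the MRCK family that acts on myosin downstream of Cdc42, was at 133, 215 and 145 CPM in WT and at 19.5, 20.0 and 20.3 CPM in KO. The KO libraries were nearly equal, and the fall was 3.04 log2 (SE 0.21, adjusted p = 0.000106). The death-associated kinases Dapk1 and Dapk2 also fell. In WT, Dapk1 had counts of 37, 68 and 91, against 0, 0 and 1 in KO, a ratio of 204 (95% exact binomial interval 36.2 to 8103, counting error only). Dapk2 fell by 2.81 log2, from 0.748 to 0.105 CPM. Without KO replicate 1 the counts were 5 higher and 3 lower.

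On the side of the phosphatase, 3 of 10 genes rose, 0 fell and 7 were not called. Ppp1r14a, the phosphatase inhibitor CPI-17 of smooth muscle, was at 4.43, 4.59 and 4.29 CPM in WT and at 22.3, 14.1 and 13.1 CPM in KO, a rise of 1.89 log2 (SE 0.24, adjusted p = 0.00147). Ppp1cb, the catalytic subunit that pairs with the targeting subunit, went from 220.5 ± 12.0 to 387 ± 65.8 CPM, a rise of 0.81 log2 (SE 0.14, adjusted p = 0.00598). Ppp1r12b, the related targeting subunit of striated muscle, rose by 0.43 log2 (adjusted p = 0.03). This call was lost in 7 of 16 alternatives, among them without WT replicate 1, 2 or 3 (adjusted p = 0.112, 0.117 and 0.064). It was also lost without KO replicate 2 (0.0836) and with library totals (0.22 log2, 0.196). The catalytic subunit gene Ppp1ca was at 545 and 541 CPM (log2 fold change -0.01, adjusted p = 0.974), with KO replicate 1 at 372 CPM and the other KO libraries at 625 and 626 CPM.

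Among 16 other effectors of RhoA and ROCK 1 rose, 2 fell and 13 were not called. Diaph3, a formin that nucleates actin filaments, was at 82.3 ± 5.40 CPM in WT and 41.9 ± 2.77 CPM in KO and fell by 0.97 log2 (SE 0.08, adjusted p = 0.000914). Add2, an adducin that caps filaments, fell by 0.93 (adjusted p = 0.0286), and Cfl2, the muscle form of the severing protein cofilin, rose by 0.77 (adjusted p = 0.0398). Add2 lost its call in 6 of 16 alternatives. These included each fit without a library other than KO replicate 1 (adjusted p = 0.0581 to 0.105). Cfl2 was not called in 5 of 16 alternatives, among them those without WT replicate 1, 2 or 3 (0.117, 0.126 and 0.117). With library totals it was also not called (0.55 log2, 0.0712). Limk1, the ROCK substrate that phosphorylates cofilin, was at 52.2 and 50.6 CPM (log2 fold change -0.04, adjusted p = 0.792). The counts were 0 higher and 1 lower without any 1 WT library, 1 and 1 without KO replicate 2 or 3, and 3 and 4 without KO replicate 1.

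Of 16 genes for filament partners of myosin 6 rose, 3 fell and 7 were not called. Tropomyosins, which lie along actin and set which myosin can bind, moved in both directions. Tpm2, Tpm4 and Tpm1 rose by 1.88, 1.27 and 1.23 log2, Tpm4 from 441 ± 25.8 to 1065 ± 66.7 CPM, while Tpm3 fell by 1.05 log2, from 201 ± 12.4 to 97.2 ± 19.6 CPM (SD, n = 3). Svil, the actin- and myosin-binding supervillin, rose by 1.33 log2, and Shroom2, a ROCK-recruiting scaffold, fell by 1.36. Without KO replicate 1 the counts were 7 higher and 5 lower. Of the unconventional myosins, which carry cargo or link membranes to actin, 15 of 24 could be tested, with 3 higher, 3 lower and 9 not called. Myo7a and Myo10 rose by 1.90 and 0.45 log2, and Myo1d and Myo18a fell by 0.71 and 0.38. Myo1d lost its call without WT replicate 1, 2 or 3 or KO replicate 3 (adjusted p = 0.0514, 0.0657, 0.0614 and 0.057). Myo10 lost its call in 6 of 16 alternatives, among them without WT replicate 2 or 3 or KO replicate 3 (0.140, 0.104 and 0.0858). Myo18a lost its call in 8 of 16, among them each fit without a library other than KO replicate 1 (0.0707 to 0.124). This list had 3 higher and 0 lower genes without WT replicate 1, 2 and 0 when WT replicate 2 or 3 or the third KO library was left out, and 5 and 4 without KO replicate 1.

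Of the other class II chains outside striated muscle, Myl9 rose by 4.68 log2, as given above, while Myh11 and Myl6b were not called. Myh11, the heavy chain that defines differentiated smooth muscle, stayed low at 0.880, 0.691 and 0.709 CPM in WT and at 0.676, 1.01 and 0.762 CPM in KO, with overlap between the groups (log2 fold change 0.10, adjusted p = 0.825, limma-voom interval -0.62 to 0.81). Of 14 striated muscle myosin chains 11 had too few counts to be tested, and of the others Myh7b fell by 3.06 log2 (adjusted p = 0.00751), from 1.23 ± 0.332 to 0.142 ± 0.134 CPM, with 37 of its exon bases shared with Trpc4ap on the opposite strand. Some lists of cell type markers moved with the genotype. Of 8 smooth muscle markers 6 of the 7 tested rose, with a summed level of 104 to 133 CPM in WT and 4606 to 12856 CPM in KO, while Myh11 was not called and the smooth muscle regulator Myocd had totals of 17 and 6 counts. Most of the KO sums was Acta2, at 57.8, 48.3 and 80.7 CPM in WT and at 11481.5, 6379 and 4120 CPM in KO. The part of the smooth muscle markers in the changes of Mylk, Myl6 and Myl9 was not tested. Of 10 fibroblast markers 8 rose and 0 fell, with summed levels of 2989.6 to 3775 CPM in WT and 7659.6 to 10578 CPM in KO. Col1a2, Lum and Thy1 had only 28, 27 and 1 counts in the WT libraries together.

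Of 7 adipocyte markers 3 could be tested, of which 1 rose, 1 fell and 1 was not called. Cebpa, a regulator of fat cell differentiation, fell by 4.20 log2 (adjusted p = 0.000813), from 5.59 to 0.290 CPM, and Pparg, the nuclear receptor that drives it, rose by 0.73 log2 (adjusted p = 0.0205), from 16.0 to 26.6 CPM. Fabp4, the fatty acid carrier of fat cells, was at 9.55, 4.78 and 8.31 CPM in WT and at 109, 8.60 and 16.2 CPM in KO and was not called (adjusted p = 0.0686). The summed adipocyte markers were at 26.1 to 32.1 CPM in WT and 36.9 to 139.6 CPM in KO. Most of the highest sum was Fabp4 in KO replicate 1. Lep was at 0 counts in all libraries, Adipoq at 0 in WT and 1 in KO and Plin1 at 5 and 6. Cidec, also not tested, had 0 counts in every WT library and 0, 3 and 45 in KO replicates 1, 2 and 3. Endothelial markers summed to 3.36 to 4.69 CPM in WT and 2.15 to 3.68 CPM in KO, macrophage markers to 8.61 to 21.2 and 3.21 to 15.7, epithelial markers to 5.03 to 10.2 and 30.3 to 50.6, and striated muscle markers to 0.409 to 0.912 and 1.09 to 2.89. Of these 4 lists, 1 of 5 tested endothelial genes fell, 1 of 3 tested macrophage genes fell, 2 of 3 tested epithelial genes rose and 1 fell, and 1 of 2 tested striated muscle genes rose. The higher epithelial sum in KO came from Krt19 (5.50 to 34.7 CPM) and Krt18 (0.183 to 8.60 CPM). Epcam fell from 127 counts in WT to 0 in KO. Cdh1 (29 and 6 counts) and Krt8 (19 and 8), not tested, were also lower in KO. Ptprc, which defines blood cells, had 0 counts in WT and 1 in KO.

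Genes with the most similar pattern were sought for those of the 10 genes without overlap between the genotypes, so not for Ppp1r12a. The search took 9407 genes with a mean of at least 10 CPM and used Pearson correlation of log2 CPM over the 6 libraries. It is a description, since the genotypes separate these libraries for 49.6% of tested genes. The nearest to Myh9 were Esyt2, Spata6 and Ankrd1, to Myl6 the genes Rps3a2, Tmsb4x and Pip5k1a, to Myl12a the genes Cpq, Actr3 and Pls3, and to Mylk the genes Itpk1, Hsd17b11 and Mum1l1. Between 32 genes (Rock1) and 645 genes (Myl12a) reached a correlation of 0.95. Rock1 was nearest to Nipbl, Ptpn4 and Cep350, and Rock2 to Pik3c2a, Epb41 and Tarbp1.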

How the data were processed

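RNA of 3 WT and 3 KO libraries was sequenced after an Illumina TruSeq preparation, per the labels' protocols. The authors deposited whole-number counts of reads for each Ensembl gene. TopHat2 2.1.0, HTSeq, DESeq2 and GRCm38.p4 are listed, with no order or role, per the submitters' processing notes. Strandedness, annotation release and read filters were not given in the sources used here. Of 46603 identifiers, 46005 matched GENCODE M21, which gave symbols, positions and exon lengths.

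In R 4.3.3, genes passing edgeR 4.0.16 filterByExpr were scaled with TMM and compared between genotypes (no other term) by its quasi-likelihood F test, which takes both directions, and called at a Benjamini-Hochberg adjusted p below 0.05. Standard errors are of the difference in mean log2 CPM (prior count 0.25). Gene shares used counts per kb of exon and the exact permutation test, over 7 quantities. Precision at low counts is set by the library totals. Code was tested on simulated data.

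Alternatives were other scalings, DESeq2 1.42.0, limma-voom (limma 3.58.1), other filters, the replicate number as a block, each library left out and, added after the data were seen, a transcript length offset. The members, lists and tests were chosen with earlier results of these data known. The rule for naming took the 10 genes, Rhoa, Myl9, Myh11 and Actb. From each pathway list it took the 4 called genes with the smallest p and up to 2 in the other direction. It also took the 3 genes most correlated with each member whose WT and KO values did not overlap. Other genes named, such as Myl6b, Calm3, Rnd3, Ppp1ca and Limk1, were chosen after their values were seen. No protein table was used, and sequence identities come from translated transcripts. Some genes of the lists are counted but not reported by name here.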

Additional observations from a re-analysis of the deposited data

How the results depend on the processing

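Among the 10 genes, Myl6, Myl12a and Mylk kept their direction and call in all 16 alternatives, and Rock1 stayed uncalled in all. The counts of the 10 genes ran from 3 to 7 higher and 0 to 1 lower when 1 library was left out. Over all tested genes, leaving out 1 library gave 1003 to 3075 higher and 1295 to 3462 lower genes, and for the pathway lists 16 to 33 and 9 to 22. Library totals gave 1351 higher and 3347 lower genes, and the length offset 2751 and 1886, with a median of 0.10 log2 over all tested genes. Ppp1r12a, not called, turned to -0.020 log2 with library totals and ran from -0.020 (without KO replicate 1) to 0.353 when 1 library was left out. Myh11, not called, turned to -0.089 with library totals and ran from -0.073 (without KO replicate 2) to 0.216. With the longest transcript as the length the share of Myl12b differed by -16.6 percentage points and that of Myl9 by 49.0, and the cause of each change above was not tested.

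The labels do not say whether equal replicate numbers pair cultures. Deviations of equally numbered WT and KO libraries correlated at -0.101, 0.046 and -0.148, and only number 2 correlated best with its own. With so few libraries, such correlations cannot show whether equally numbered libraries were paired. With the replicate number as a block, 3 of the 10 genes were higher and 0 lower (edgeR), against 1446 higher and 1599 lower of all tested genes. Fewer libraries, or the terms of the block, leave fewer degrees of freedom, and the part of this in the changed counts was not tested. Low counts limit genes such as Myh7b, Dapk1 and Dapk2.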
